A study of Rattus norvegicus with 10 samples.

Results

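Potassium channel genes were read out on 10 arrays, each from the right brain of 1 male Wistar rat that had inhaled a food aroma compound or water vapor. Members were the genes whose platform symbol starts with Kcn and that had at least 1 probe set naming a single gene, with the choroid plexus gene Kcne2 left out by the rule. This gave 74 genes, measured by 123 probe sets, of 14217 genes named on the array. A gene with several probe sets is represented by the brightest of them, that of the highest mean. The DMHF group held 5 rats that breathed vapor over DMHF, a furanone with a caramel-like and strawberry-like aroma. The control group held 5 rats that breathed vapor over distilled water. All animals were aged 7 weeks, and the labels name no allele or other agent in either group. Inhalation from a flask with 5 mL of liquid lasted 5 min, the rats were killed 10 min later, and exposure came before the dark period. The tissue is the whole right side of the brain, so regions and cell types are mixed. The comparison asks whether transcripts of these channels differ 10 min after the odor.

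Potassium channels let potassium ions cross the membrane and set the resting potential, the shape of the action potential and the firing pattern of neurons. The Kcna to Kcnd families open on depolarization, Kcnq channels carry the M-current that restrains repeated firing, and Kcnm and Kcnn channels open with intracellular calcium. Inward rectifiers (Kcnj) hold the membrane near rest, serve G-protein-coupled inhibition and clear potassium in glia, while Kcnk channels pass leak current. Auxiliary Kcnab, Kcnip and Kcne proteins change the gating or transport of pore-forming subunits. Channel proteins are also controlled by trafficking and phosphorylation, which an array of transcripts does not read.

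The values were deposited on what was taken as a log2 scale, with a range of 5.25 to 14.22 and a median of 7.24, and they differed little between arrays. Between arrays, a probe set had a median SD of 2.20 millionths of a log2 unit, and array medians differed by up to 15.2 millionths. Differences are therefore given in millionths of a log2 unit, DMHF minus control, and in units of the pooled SD of rats within groups. Neither gives a fold change in RNA amount, and millionths of separate probe sets cannot be compared in size. All 9 measured neuronal markers lay above the median of all values, between 8.38 and 13.34; these include Snap25, Syn1 and Gad1. In such mixed tissue, fewer cells of a type and less RNA per cell cannot be told apart. The labels call the samples biological replicates, so the spread within groups is that between single rats. The SE of limma also draws on the spread of all probe sets, and can exceed that of a probe set with little spread. Kcnd2, for example, had a within-group SD of 0.155 millionths and an SE of 0.232. The exact permutation test, given beside limma, uses only the rats' own values. With 5 rats a group, precision is limited by how few arrays there are.

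No potassium channel gene passed the test for a difference between DMHF and control rats. Of the 74 genes, 0 had an adjusted p under 0.05 by limma with Benjamini-Hochberg adjustment over all 31042 probe sets, of which 0% were called. The smallest adjusted p among the 74 genes was 0.871. At an unadjusted limma p under 0.05, 1 gene was higher in DMHF (Kcnh6), where 2.98% of all genes were. By the same rule 1 was lower (Kcns3), where 1.83% of all genes were. These are shares of 1.35% each, not above the background. The exact two-sided permutation test over rats gave an unadjusted p under 0.05 for 1 higher gene (Kcnd3) and 2 lower ones (Kcns3 and Kcnj13). The share of all genes passing that test was not counted, so these counts have no background beside them. A difference above 0 was found for 35 of the 74 genes, against 53% of all genes, and a difference below 0 for 39. The median difference was -0.07 within-group SD over the members and 0.05 over all genes. The 5 DMHF values and the 5 control values overlapped for all 74 genes, where 0.893% of all genes had groups that did not overlap. Single genes differed by between -1.58 SD (Kcns3) and 1.76 SD (Kcnd3).

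**Figure D1:**
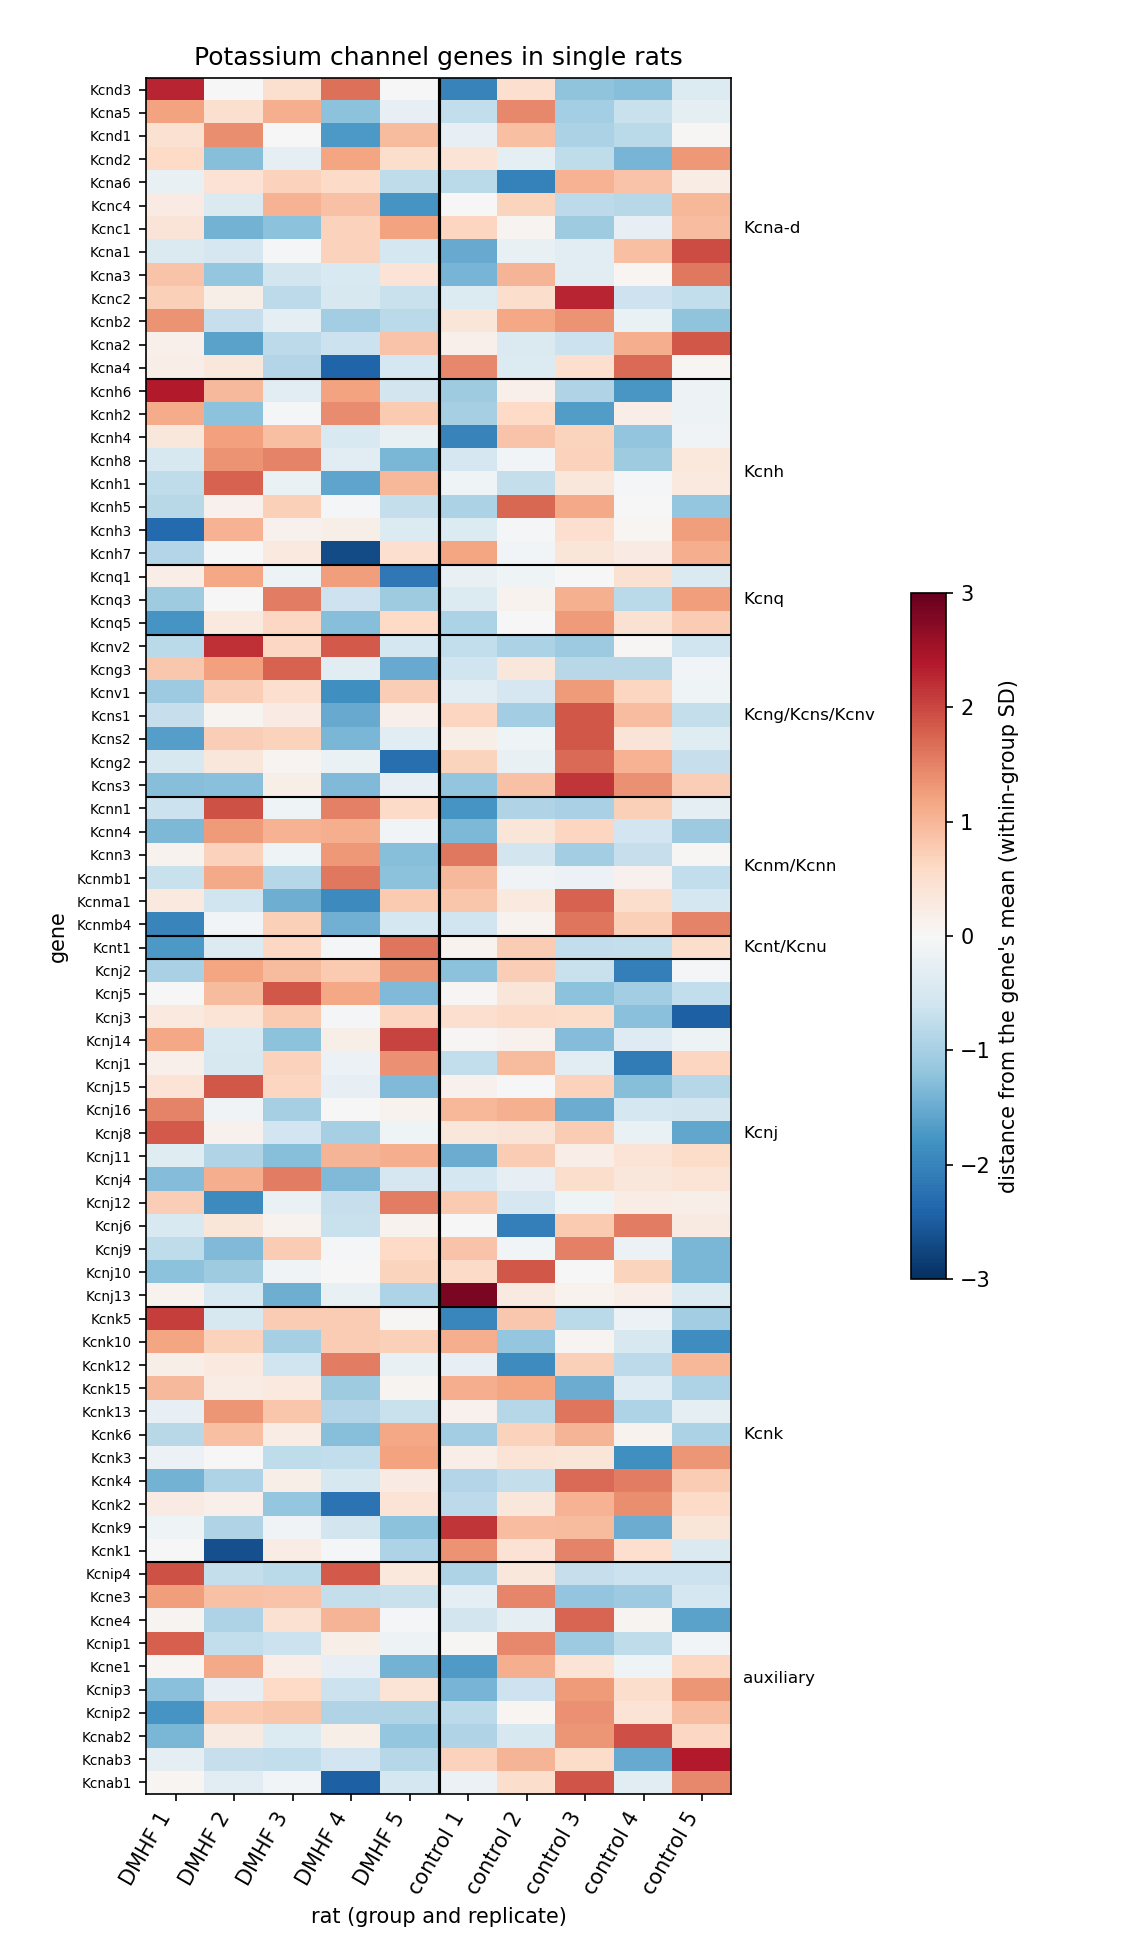
Each row is 1 of the 74 genes and each column 1 rat, DMHF rats 1 to 5 on the left and control rats 1 to 5 on the right. Colour gives the distance of the rat from the gene's mean over the 10 rats in within-group SD, red for higher and blue for lower, with black lines between subfamily groups. No subfamily is red throughout one group of rats and blue throughout the other, and the largest distance is 2.82 SD.

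Kcns3 encodes an electrically silent subunit that forms no channel alone and modifies other voltage-gated channels. It was the member with the smallest limma p in either direction. Relative to the control mean, its values were -13.2, -13.0, -3.91, -13.4 and -6.62 millionths in DMHF rats 1 to 5, against -12.4, 0.575, 8.5, 3.74 and -0.362 in control rats 1 to 5. DMHF rats 1, 2 and 4 lay below all controls, and control rat 1, at -12.4, lay close to them. The difference was -10.0 millionths (SE 3.81), or -1.58 within-group SD (limma p = 0.0279, adjusted p = 0.871, exact permutation p = 0.0397). With single arrays left out it ranged from -13.1 to -7.89 millionths. Without any of DMHF rats 1, 2 and 4 and control rats 2, 3 and 4, limma p was above 0.05, at most 0.0629. With arrays scaled to a common median limma p was 0.0822.

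Kcnh6, an ERG-type voltage-gated channel, had the smallest limma p among the higher members. Its values were 40.0, 22.2, 5.58, 25.2 and 2.51 millionths in DMHF rats 1 to 5, against -4.18, 11.5, -2.05, -12.9 and 7.71 in control rats 1 to 5. Every DMHF rat lay above the control mean, but 2 of them lay below the highest controls. The difference of Kcnh6 was 19.1 millionths (SE 7.74), or 1.49 within-group SD (limma p = 0.0362, adjusted p = 0.876, exact permutation p = 0.0556). Its mean of 6.52 lay below the median of all values, and whether the probe set reads a transcript of brain at this level was not tested. Without any of DMHF rats 1, 2 and 4 and control rats 1, 3 and 4, limma p was above 0.05, at most 0.0834. With arrays scaled to a common median limma p was 0.0298.

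Kcnma1, the pore-forming subunit of the large-conductance calcium-activated channel, had a difference below 0 on all 3 of its probe sets. On the probe set that stands for the gene (mean 8.73) the values were -0.924, -3.89, -6.7, -8.21 and 0.684 millionths in DMHF rats 1 to 5, against 0.843, -0.93, 3.94, -0.176 and -3.68 in control rats 1 to 5. The groups overlapped there, and the difference was -3.81 millionths (SE 2.0), or -1.16 SD (limma p = 0.0891, adjusted p = 0.936, exact permutation p = 0.103). On the second (mean 7.59) the values were -25.4, -25.5, -22.5, -36.7 and -43.7 millionths in DMHF rats 1 to 5, against -1.24, -28.4, 18.4, 7.5 and 3.76 in control rats 1 to 5. Control rat 2 alone among the controls fell within the DMHF range, and the difference was -30.8 millionths (SE 8.35), or -2.22 SD (limma p = 0.00521, adjusted p = 0.771, exact permutation p = 0.0317). On the dimmest (mean 7.23) the values were -140, -115, -78.6, -130 and -184 millionths in DMHF rats 1 to 5, against 71.5, -60.9, 69.7, 17.1 and -97.3 in control rats 1 to 5. Here control rat 5 fell within the DMHF range, and the difference was -129 millionths (SE 36.4), or -2.14 SD (limma p = 0.00633, adjusted p = 0.776, exact permutation p = 0.0159). None of the 3 passed over all probe sets. Each kept its sign with any 1 array left out, with ranges of -4.93 to -2.71, -37.9 to -26.2 and -154 to -112 millionths in the same order. After quantile normalization the second stood at -6.72 and the dimmest at -113, while the first had no value left to test. After removing group means, the first probe set correlated over rats with the second at a Pearson r of 0.114. Its r with the dimmest was 0.204, and that of the second with the dimmest was 0.57. The median over all member pairs was 0.31. The mean of all 3 probe sets, each in SD units, stood at -1.84 (limma, adjusted p = 0.106 over all genes fitted that way). That fit first divides each probe set by its own within-group SD, so its p-values are not comparable with those above. For Kcns3, which has 1 probe set, limma p was 0.00676 in that fit and 0.0279 in the main one.

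**Figure D2:**
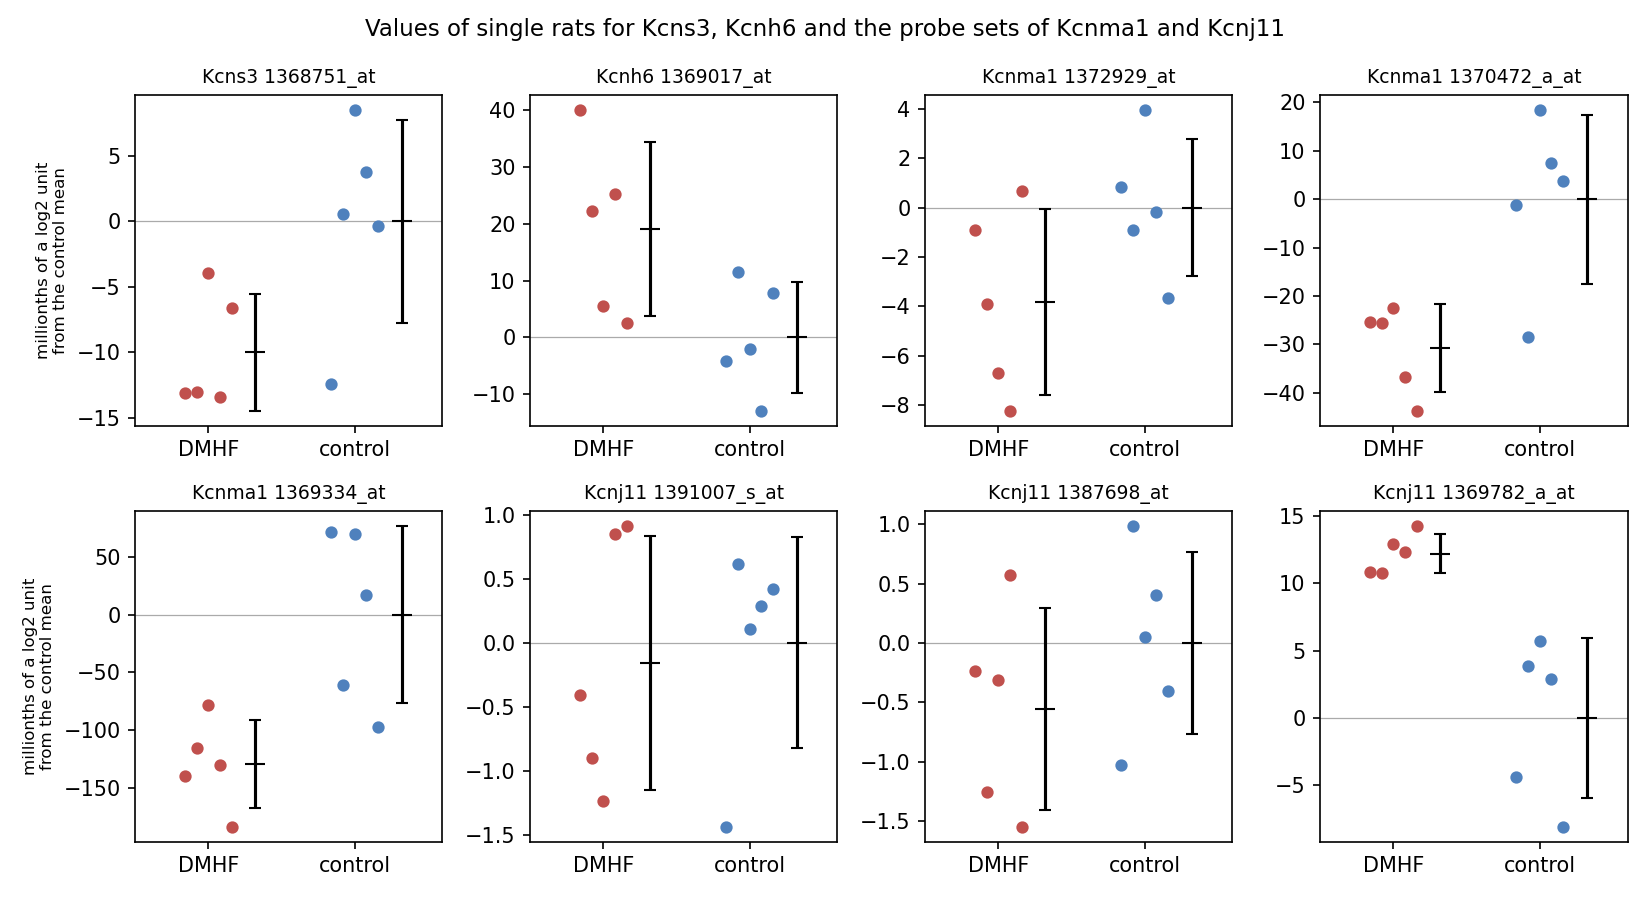
Each panel plots the 10 rats for 1 probe set, DMHF left and control right, in millionths of a log2 unit from the control mean, with the group mean and SD beside the points. The 3 Kcnma1 panels lie lower in DMHF by 1.16 to 2.22 SD, while only the last of the 3 Kcnj11 panels has groups that do not overlap.

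Kcns3 and Kcnh6 were the only members at an unadjusted limma p under 0.05. Kcnma1 was the only one with 3 probe sets of 1 sign of which 2 had such a p. For this reason the start regions of these 3 genes are shown. They are the 250 bases before the RefSeq start on assembly GRCr8, 5′ to 3′ on the gene's strand, with GC boxes (GGGCGG, or CCGCCC on the other strand, overlaps counted) in capitals. Kcns3 has 2 starts in the table, at chr6:39584106-39584355, minus strand, and at chr6:39583395-39583644, minus strand. Kcnh6 starts after chr10:91449401-91449650, plus strand, and Kcnma1 after chr15:351675-351924, plus strand.
Kcns3 start 1: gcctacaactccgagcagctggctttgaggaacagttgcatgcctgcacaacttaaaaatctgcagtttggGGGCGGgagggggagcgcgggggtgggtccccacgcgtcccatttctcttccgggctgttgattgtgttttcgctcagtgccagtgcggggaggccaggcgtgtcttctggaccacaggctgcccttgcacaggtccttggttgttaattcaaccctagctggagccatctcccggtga
Kcns3 start 2: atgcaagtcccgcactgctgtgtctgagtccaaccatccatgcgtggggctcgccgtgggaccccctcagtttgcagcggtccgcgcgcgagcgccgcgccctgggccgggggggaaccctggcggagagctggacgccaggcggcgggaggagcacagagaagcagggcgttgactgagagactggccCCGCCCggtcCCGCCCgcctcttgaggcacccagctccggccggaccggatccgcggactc
Kcnh6: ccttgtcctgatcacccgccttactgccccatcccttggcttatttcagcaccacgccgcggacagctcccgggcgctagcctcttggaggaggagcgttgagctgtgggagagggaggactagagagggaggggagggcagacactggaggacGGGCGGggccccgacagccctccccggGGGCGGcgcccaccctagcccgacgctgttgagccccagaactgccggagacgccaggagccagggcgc
Kcnma1: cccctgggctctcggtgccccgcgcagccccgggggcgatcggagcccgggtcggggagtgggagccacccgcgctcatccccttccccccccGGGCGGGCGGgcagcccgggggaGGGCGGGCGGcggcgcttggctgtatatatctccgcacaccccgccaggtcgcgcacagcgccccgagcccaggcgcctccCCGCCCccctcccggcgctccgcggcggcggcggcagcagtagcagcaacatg
The windows held 1 and 2 GC boxes for Kcns3, 2 for Kcnh6 and 5 for Kcnma1, whose window had 79.6% G and C. The table held 58 such windows for 52 of the 74 genes. A GC box was found in 32 of them (55.2%), against 30.5% of all 33469 windows in the table. A TATA box (TATAAA, both strands) was found in 2 (3.45%), those of Kcnj1 and Kcnj13, against 12.9% of all windows. The full cAMP response element (TGACGTCA) was found in 0, against 1.59% of all. The median G and C content was 62.0% in member windows and 51.2% in all. A match of letters is a description of the window and says nothing of which factor binds there.

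Among the voltage-gated pore-forming genes of the Kcna to Kcnd families, 5 of 13 had a difference above 0 and 8 below, with a median of -0.14 SD and 0 past the test. Kcnd3, an A-type channel subunit that opens briefly below threshold, stood highest. Its values were 1.31, 0.367, 0.563, 1.05 and 0.358 millionths in DMHF rats 1 to 5, against -0.468, 0.571, -0.138, -0.161 and 0.196 in control rats 1 to 5. All DMHF rats of Kcnd3 lay above the control mean, and control rat 2 alone lay among them. The difference was 0.73 millionths (SE 0.328), or 1.76 within-group SD (limma p = 0.0532, adjusted p = 0.927, exact permutation p = 0.0397). Another probe set of Kcnd3 had the same sign at 0.647 (SE 0.466), and the third differed by -87.6 millionths (SE 152).

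Kcna4, the A-type member of its family, stood lowest of these 13. Its values were -0.942, -0.642, -3.15, -6.26 and -2.43 millionths in DMHF rats 1 to 5, against 1.59, -2.19, -0.30, 2.13 and -1.23 in control rats 1 to 5. The 3 lowest DMHF rats lay below every control, and the other 2 among them. The difference was -2.68 millionths (SE 1.25), or -1.31 within-group SD (limma p = 0.0614, adjusted p = 0.931, exact permutation p = 0.0714). Kcna2, an axonal channel subunit, differed by -9.2 millionths (SE 6.79) on the probe set that stands for it and by 3.95 (SE 2.66) on the other, so its sign depended on the probe set. Kcna1, its axonal partner, differed by -0.988 millionths (SE 1.84). The fast-spiking channels Kcnc1 and Kcnc2 differed by -0.762 (SE 3.27) and -0.586 (SE 0.882). Kcnd2, the main A-type channel of dendrites, differed by 0.046 (SE 0.232). Each of these lay within 1 SD of 0.

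The ERG, EAG and ELK channels (Kcnh) had 5 of 8 genes above 0 and a median of 0.18 SD. Kcnh3, a forebrain ELK channel, had values of -104, 30.5, -5.59, -3.8 and -27.0 millionths in DMHF rats 1 to 5, against -27.0, -12.5, 9.25, -8.52 and 38.7 in control rats 1 to 5. DMHF rat 1 at -104 decided the DMHF mean, and the difference of -22.0 millionths (SE 23.9) shrank to -1.49 without that rat. Kcnh7, an ERG-type channel, differed by -1.13 millionths (SE 0.643), or -1.12 SD. Of the 3 Kcnq genes 1 lay above 0, with a median of -0.48 SD. Kcnq3, which carries the M-current together with other Kcnq subunits, differed by -0.987 millionths (SE 1.24), and its other probe set by -2.62 (SE 2.63). Kcnq5, a further neuronal M-current subunit, differed by -4.31 (SE 4.2). Kcnq1, best known from heart and inner ear, differed by 0.57 (SE 2.59).

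The silent subunits of the Kcng, Kcns and Kcnv groups had the lowest median, -0.68 SD, with 2 of 7 genes above 0. That median rests on 7 genes, of which Kcns3 was the only one at an unadjusted p under 0.05. Kcnv2, a silent subunit known from photoreceptors, ran the other way, on a probe set with a mean of 6.30, below the median of all values. Its values were -0.0976, 2.11, 0.953, 1.85 and 0.111 millionths in DMHF rats 1 to 5, against -0.0526, -0.199, -0.306, 0.51 and 0.0464 in control rats 1 to 5. DMHF rats 2, 3 and 4 lay above all controls, and the other 2 among them. The difference was 0.985 millionths (SE 0.492), or 1.34 within-group SD (limma p = 0.0767, adjusted p = 0.931, exact permutation p = 0.0714), and the other Kcnv2 probe set differed by 0.376 (SE 0.313).

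**Figure D3:**
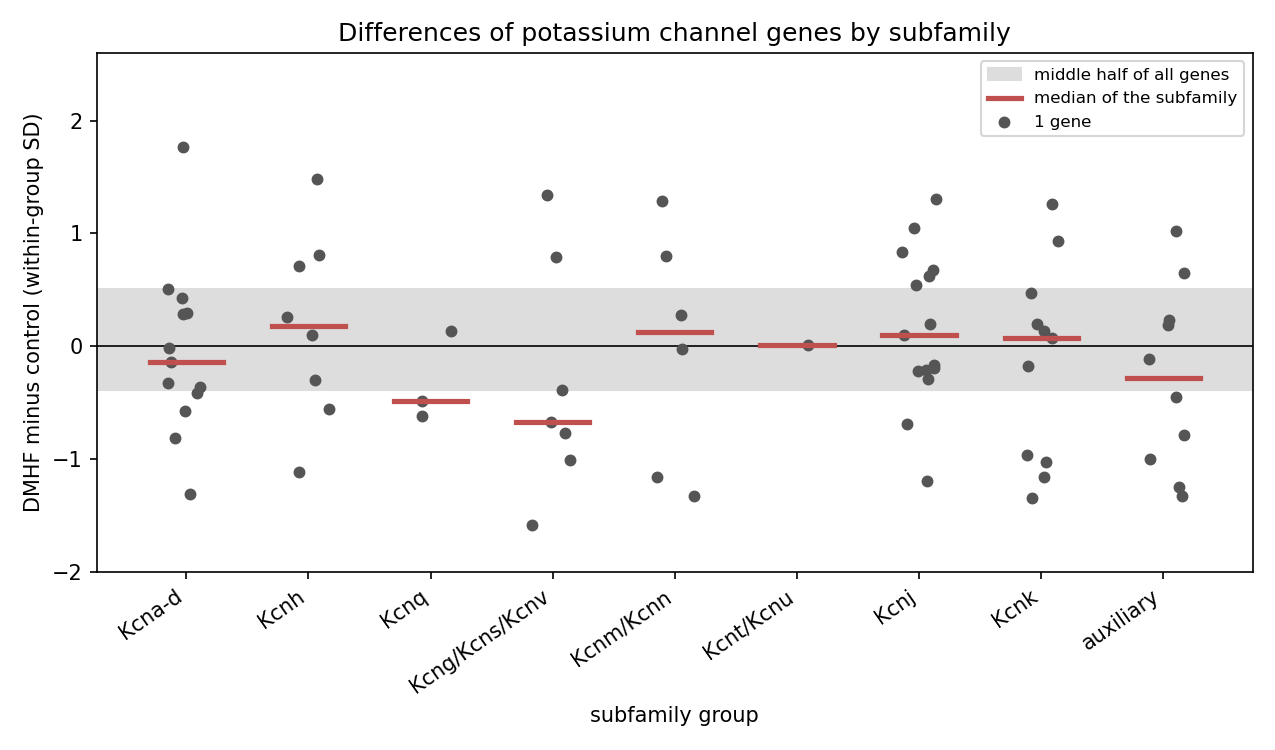
Points are the 74 genes by subfamily group, and the vertical axis is the difference, DMHF minus control, in within-group SD. Red bars are medians, from -0.68 SD (Kcng, Kcns and Kcnv) to 0.18 SD (Kcnh), and the grey band holds the middle quartiles of all genes, from -0.39 to 0.504 SD.

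Of the calcium-activated genes (Kcnm and Kcnn), 3 of 6 lay above 0 and the median was 0.13 SD, with Kcnma1, Kcnmb4 and Kcnmb1 below 0 and the Kcnn genes above it. Kcnmb1, named after its values were seen, differed by -0.0264 (SE 0.73). Kcnmb4, the neuronal beta subunit of the large-conductance channel, also had a difference below 0. Its values were -5.2, -1.49, 0.0886, -4.16 and -2.36 millionths in DMHF rats 1 to 5, against -2.49, -1.08, 1.87, 0.101 and 1.61 in control rats 1 to 5. The 2 lowest DMHF rats lay below all controls, and the rest overlapped. The difference was -2.62 millionths (SE 1.21), or -1.33 within-group SD (limma p = 0.0581, adjusted p = 0.931, exact permutation p = 0.0714). All 3 measured Kcnn genes had a difference above 0 on the deposited scale, while after quantile normalization Kcnn1 stood at -31.8 millionths and Kcnn3 at -64.9. Kcnn1, a small-conductance channel of the afterhyperpolarization, had values of -0.0142, 6.54, 1.33, 5.53 and 3.12 millionths in DMHF rats 1 to 5, against -2.85, -0.658, -0.835, 3.46 and 0.889 in control rats 1 to 5. DMHF rats 2 and 4 lay above all controls. The difference was 3.3 millionths (SE 1.55), or 1.29 within-group SD (limma p = 0.0633, adjusted p = 0.931, exact permutation p = 0.0714). Kcnn3, its relative in dopamine neurons, differed by 0.758 (SE 1.65). Kcnt1, a sodium-activated channel, differed by 0.0586 (SE 3.08). Whether the sides of the large-conductance and small-conductance genes differ was not tested, since the split was seen in these data.

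Inward rectifiers (Kcnj) were spread around 0, with 8 of 15 genes above it and a median of 0.10 SD. Kcnj11, the pore of the ATP-sensitive channel of neurons and beta cells, held the smallest p of any member probe set, on a probe set that does not stand for the gene. On this dimmest of 3 probe sets (mean 7.17) the values were 10.9, 10.8, 12.9, 12.3 and 14.3 millionths in DMHF rats 1 to 5, against -4.42, 3.86, 5.74, 2.92 and -8.1 in control rats 1 to 5. All 5 DMHF rats lay within 10.8 to 14.3 and above every control. The difference was 12.2 millionths (SE 2.62), or 2.82 SD (limma p = 0.00122, adjusted p = 0.703, exact permutation p = 0.00794, the smallest p that 252 assignments allow). It was the only one of 123 member probe sets whose groups did not overlap, where 0.867% of all probe sets did not. The brighter probe sets of Kcnj11 differed by -0.155 (SE 0.587) and -0.558 (SE 0.532), with overlapping groups and the other sign. The difference on the dimmest probe set ranged from 10.2 to 13.7 with single arrays left out.

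Kcnj13, a channel of choroid plexus epithelium, had a difference below 0, while the measured choroid plexus markers had one above 0. Its values were -3.23, -6.73, -13.2, -5.28 and -9.82 millionths in DMHF rats 1 to 5, against 14.3, -2.06, -3.11, -2.61 and -6.47 in control rats 1 to 5. Control rat 1 at 14.3 stood far above the other 9 rats, and without it the difference was -4.1 in place of -7.66 millionths (SE 3.86). With all rats that is -1.2 within-group SD (limma p = 0.0789, adjusted p = 0.931, exact permutation p = 0.0476). Of the choroid plexus markers, 8 of 8 measured genes had a difference above 0, and their mean per rat ran from -0.43 to 1.54 SD in DMHF and from -1.59 to 0.59 SD in control. With the mean of these markers as a covariate the difference of Kcnj13 was -10.9 millionths (limma, adjusted p = 0.959).

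Kcnj2, a strong rectifier that holds the resting potential, had values of -0.542, 3.09, 2.7, 2.44 and 3.32 millionths in DMHF rats 1 to 5, against -0.987, 2.33, -0.032, -2.35 and 1.04 in control rats 1 to 5. DMHF rat 1 lay among the controls and the other 4 above all of them. The difference was 2.2 millionths (SE 1.04), or 1.3 within-group SD (limma p = 0.0637, adjusted p = 0.931, exact permutation p = 0.0794), and 2.89 without DMHF rat 1. Kcnj10, the potassium-buffering channel of astrocytes, differed by -4.16 (SE 3.62), and by 12.4 after quantile normalization. Its partner Kcnj16 differed by 10.3 (SE 31.4), by -0.715 on its other probe set, by -18.8 with the choroid plexus covariate and by -7.77 at the lowest with 1 array left out, so neither sign held. Kcnj16 had values of 82.4, -0.102, -46.9, 5.24 and 10.8 millionths in DMHF rats 1 to 5, against 57.1, 60.7, -72.3, -22.2 and -23.3 in control rats 1 to 5. Both groups held rats far above and far below the control mean. Astrocyte markers were above 0 for 5 of 9 genes, with a median of 0.10 SD. Kcnj8, the channel of pericytes and vascular smooth muscle, differed by 0.623 (SE 3.9). Of the G-protein-gated channels that carry slow inhibition, Kcnj3 differed by 3.78 (SE 2.72), Kcnj5 by 0.853 (SE 0.533), Kcnj6 by -0.671 (SE 1.84) and Kcnj9 by -1.38 (SE 2.81). Kcnj4, a rectifier of forebrain neurons, differed by -3.27 (SE 9.94), with an SD of 22.1 millionths in DMHF and 7.69 in control. None of these 8 genes had an unadjusted p under 0.05.

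Leak channels (Kcnk) had 6 of 11 genes above 0 and a median of 0.07 SD. Kcnk1, a weak inward-rectifying leak channel of neurons and astrocytes, stood lowest. Its values were -2.49, -12.4, -1.72, -2.7 and -5.99 millionths in DMHF rats 1 to 5, against 2.55, -0.891, 3.09, -0.625 and -4.13 in control rats 1 to 5. DMHF rats 2 and 5 lay below all controls, and the other 3 among them. The difference was -5.07 millionths (SE 2.27), or -1.35 within-group SD (limma p = 0.053, adjusted p = 0.926, exact permutation p = 0.0635), and -3.22 without DMHF rat 2. The acid-sensitive channel Kcnk9 differed by -2.37 millionths (SE 1.24), or -1.57 without control rat 1, and the stretch-sensitive channel Kcnk2 by -2.57 (SE 1.52), with 0.533 (SE 0.834) on the other Kcnk2 probe set. Kcnk4, also opened by stretch, differed by -15.0 (SE 9.35). Kcnk5 and Kcnk10 lay above 0, at 0.526 (SE 0.328) and 1.67 (SE 1.1), while the other Kcnk10 probe set differed by -11.1 (SE 7.39). For Kcnk6, named after its values were seen, the probe set that stands for the gene differed by 0.048 (SE 0.441), and the dimmer one by 15.02 millionths (SE 5.69), or 1.59 SD (limma p = 0.0272, adjusted p = 0.868, exact permutation p = 0.0238).

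Among the auxiliary subunits 4 of 10 genes lay above 0, with a median of -0.28 SD. All 3 Kcnab genes, whose proteins bind the cytoplasmic side of Kcna channels, had a difference below 0 of 1 SD or more. They stood at -1.33 (Kcnab1), -1.25 (Kcnab3) and -1.0 SD (Kcnab2, just at that limit). A difference below -1 SD was found for 13 of the 74 members and for 893 of all 14217 genes. The values of Kcnab1 were -2.4, -3.88, -2.96, -12.2 and -4.64 millionths in DMHF rats 1 to 5, against -3.33, -0.578, 4.81, -3.93 and 3.02 in control rats 1 to 5. DMHF rats 4 and 5 lay below all controls, and DMHF rat 4 lay far below the rest. The difference of Kcnab1 was -5.21 millionths (SE 2.37) (limma p = 0.0558, adjusted p = 0.931, exact permutation p = 0.0794), or -3.47 without DMHF rat 4, and its other probe set differed by -1.34 (SE 0.662). The values of Kcnab3 were -4.9, -7.32, -7.5, -6.62 and -8.24 millionths in DMHF rats 1 to 5, against 0.314, 2.26, -0.45, -11.8 and 9.71 in control rats 1 to 5. The DMHF rats of Kcnab3 lay between -8.24 and -4.90, below 4 of 5 controls, and control rat 4 lay lowest of all. The difference was -6.92 millionths (SE 3.34) (limma p = 0.0692, adjusted p = 0.931, exact permutation p = 0.0714), and without control rat 4 it was -9.87 (limma p = 0.00135, adjusted p = 1.0). Without control rat 5 it was -4.49. Kcnab2 differed by -12.4 (SE 7.45) on the probe set that stands for it. On the next brightest its values were -22.3, -6.36, -43.2, -16.5 and -18.7 millionths in DMHF rats 1 to 5, against -0.549, 2.06, 1.76, 9.96 and -13.2 in control rats 1 to 5, a difference of -21.4 millionths (SE 6.78) (limma p = 0.0119, adjusted p = 0.83, exact permutation p = 0.0159). DMHF rat 2 lay among the controls there, and the other 4 below all of them. The remaining Kcnab2 probe sets differed by -21.0 (SE 13.6) and 0.927 (SE 2.07).

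The Kcnip proteins, which bring Kcnd channels to the membrane and slow their inactivation, showed no shared sign. Kcnip2 differed by -16.4 millionths (SE 12.5), Kcnip3 by -0.518 (SE 0.73), Kcnip1 by 0.617 (SE 2.02) and Kcnip4 by 0.362 (SE 0.302). In the striatum, where Kcnip2 and Kcnab1 are well expressed, 6 of 6 measured markers also had a difference below 0, with a median of -0.46 SD. The mean of these markers per rat ran from -0.96 to 0.99 SD in DMHF and from -0.79 to 1.35 SD in control. Of the genes listed for parvalbumin interneurons, cells that use Kcnc1 and Kcnc2, 4 of 4 had a difference below 0 (median -0.51 SD). These were Pvalb, Gad1, Syt2 and Tac1. Gad1 was also on the list of neuronal markers, so it is not particular to these cells, and Syt2 was dim (mean 6.49). Whether Pvalb and Tac1 are particular to these cells in such mixed tissue was not tested. The 4 genes are therefore not a reading of parvalbumin interneurons alone. The part of either cell population in the channel values was not tested.

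Genes of other names that anchor, assemble with or regulate these channels, or encode related cation channels, gave 12 of 30 above 0 and 18 below, with a median of -0.16 SD and 0 at an unadjusted p under 0.05. The smallest p belonged to Dlg2, a synaptic scaffold that clusters Kcna channels. Dlg2 had values of -8.15, -13.9, -8.24, -10.4 and 0.609 millionths in DMHF rats 1 to 5, against 6.86, -3.94, 1.80, 5.02 and -9.74 in control rats 1 to 5. Of the DMHF rats only rat 2 and rat 4 lay below all controls. The difference of Dlg2 was -8.02 millionths (SE 3.69), with limma p = 0.0587, adjusted p = 0.931 and exact permutation p = 0.0873. Dpp6, an auxiliary subunit of Kcnd channels, differed by 3.39 (SE 1.65), and Sptbn4, the spectrin of the axon initial segment, by -9.53 (SE 5.98).

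Probe sets of a gene often gave different signs. Of the 30 genes with more than 1 probe set, 6 had all probe sets above 0, 6 had all below, and 18 had both signs. The 2 members of a pair of probe sets had the same sign in 39 of 76 pairs (51.3%), and in 57.2% of the 9597 pairs over all genes. After removing group means, the rat-to-rat values of such pairs correlated with a median Pearson r of 0.31 over the 76 member pairs and 0.20 over all pairs. These are descriptions over the same 10 arrays. At the level of probe sets, 3 of 123 (2.44%) were higher at an unadjusted limma p under 0.05, against 3.23% of all probe sets. By the same rule 4 (3.25%) were lower, against 2.25%. Of these 7, 2 were those of Kcnma1 and 1 each belonged to Kcns3, Kcnab2, Kcnh6, Kcnj11 and Kcnk6. The smallest adjusted p among them was 0.703.

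**Figure D4:**
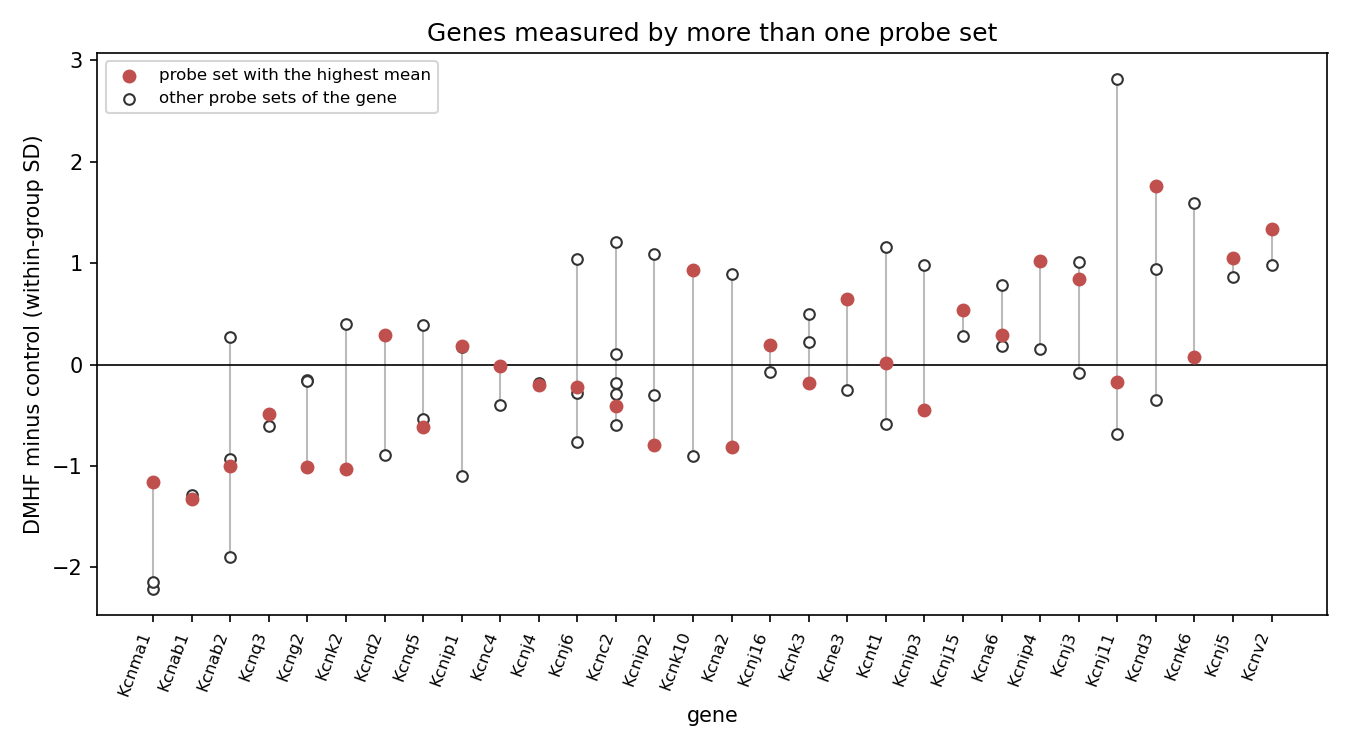
Each column is 1 of the 30 genes with more than 1 probe set, ordered by mean difference. Red points are the probe sets with the highest mean, open points the others, and the vertical axis is the difference, DMHF minus control, in within-group SD. Kcnma1 at the left has all 3 points below 0, and Kcnj11 spans -0.69 to 2.82 SD.

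Signs also went with the mean deposited value. Of the 40 members above the median of all values, 14 had a difference above 0 and the median was -0.31 SD. Of the 34 below it, 21 had a difference above 0 and the median was 0.17 SD. All genes showed the same order, with 46.6% above 0 among those above the median (median -0.05 SD) and 64.8% among those below it (median 0.26 SD). Members below the median of all values included Kcnv2 (mean 6.30), Kcnj2 (6.35), Kcnk9 (6.41), Kcnj13 (6.62) and Kcnj10 (6.76). As for Kcnh6, whether these probe sets read a transcript of brain at this level was not tested.

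Single rats differed in how many channel genes lay on their high side, and the groups overlapped. Above its median over the 10 rats lay a count of 36, 38, 43, 28 and 34 of the 74 genes in DMHF rats 1 to 5, against 33, 43, 44, 34 and 36 in control rats 1 to 5. DMHF rat 4 was lowest and control rat 3 highest. In percent, DMHF rat 4 had 37.8% of channel genes and 53.6% of all genes on the high side. Control rat 3 had 59.5% and 45.6%. The Kcna to Kcnd group had 11 of 13 genes on the high side in DMHF rat 1, and 4 to 8 in every other rat.

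**Figure D5:**
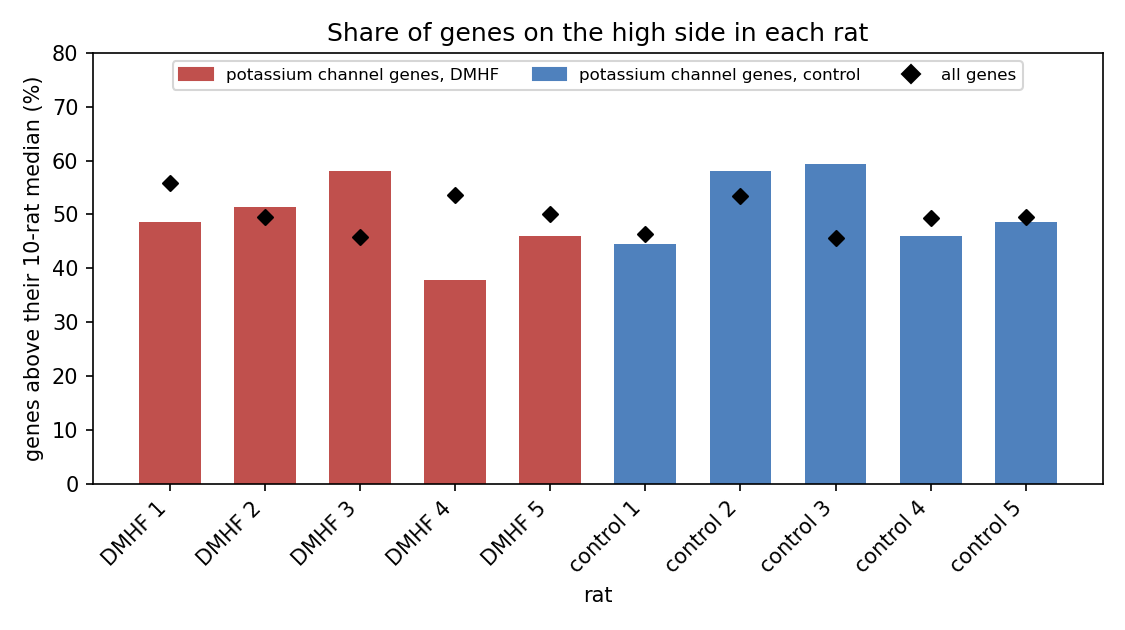
Bars give the percent of the 74 channel genes above their 10-rat median in each rat, DMHF left and control right, and diamonds give the same for all 14217 genes. The bars run from 37.8% to 58.1% in DMHF and from 44.6% to 59.5% in control.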

How the data were processed

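Total RNA from the right brain of 5 DMHF and 5 control rats was hybridised to Affymetrix rat arrays, 1 array per rat. The deposited log2 values are the authors' normalized ones, made with R 2.7.2 per the submitters' processing notes. The sources used here do not give the normalization method, and the log base was taken from the range of the values. Of 31099 probe sets, 57 control probe sets were left out. The other 31042 were fitted with limma 3.58.1 (R 4.3.3, lmFit and eBayes), DMHF minus control, with Benjamini-Hochberg adjustment over all of them. GEO's platform annotation gave 1 gene to 20826 probe sets, several to 436 and none to 9780. All 74 members were found in the RefSeq table of assembly GRCr8, which also gave the promoter windows. Single genes also had an exact permutation test over all 252 assignments, two-sided. Promoter windows and figures were handled in Python 3.11.15. The fit was also run on simulated data with normal noise drawn separately for each probe set. Its outcome is not given, and it does not stand for rats whose probe sets vary together.

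Members and gene lists were chosen with earlier results of these data known. Named genes were the 8 higher and 8 lower members of smallest p, 3 of smallest p in each of 5 subfamily groups, the 6 of largest SD, those with non-overlapping groups or with probe sets of opposite sign of which 1 had an unadjusted p under 0.05, a list chosen by role, and 3 partner genes. Of 35 partner genes 30 were measured. Some genes of the list by role are not reported here. Alternatives were scaling to a common array median or to equal quantiles, a replicate block, leaving out dim probe sets, a variance trend, array weights, 1 probe set per gene, the mean or the lowest of a gene's probe sets, a choroid plexus covariate, the exact test, and each array left out. Precision is limited by the number of arrays.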

Additional observations from a re-analysis of the deposited data

Results flagged for a closer look

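In 6 of 88 groups of 5 rats (6.82%), 1 rat stood far from the other 4 of its group by Dixon's criterion, which chance meets in about 1 in 20 groups. Values are millionths of a log2 unit from the control mean. Kcnab1 stood at -12.2 in DMHF rat 4, against -4.64 to -2.4 in the other 4 DMHF rats. Kcnip4 stood at 0.304 in control rat 2, against -0.146 to -0.046 in the other 4 control rats. Kcnj11 stood at -1.43 in control rat 1, against 0.11 to 0.615 in the other 4 control rats. Kcnj13 stood at 14.3 in control rat 1, against -6.47 to -2.06 in the other 4 control rats. Kcnj2 stood at -0.542 in DMHF rat 1, against 2.44 to 3.32 in the other 4 DMHF rats. Kcnk10 stood at -0.973 in DMHF rat 3, against 2.06 to 2.94 in the other 4 DMHF rats. The causes were not tested.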

How the results depend on the processing

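The count of 0 potassium channel genes past the adjusted threshold held under every alternative run, with the smallest member adjusted p at 0.106 (mean of all probe sets of a gene). That setting divides each probe set by its own within-group SD before the fit, so its p-values and counts are not comparable with the main ones. The unadjusted counts of 1 higher and 1 lower gene did not hold. They were 3 and 8 with a replicate block, 3 and 0 after quantile normalization, 3 and 3 with array weights, 5 and 9 with the mean of all probe sets, and 3 and 2 with the lowest-mean probe set. With a variance trend 2 were higher, with 1 probe set per gene in the fit 2, and with the choroid plexus covariate 0, while the exact test gave 2 lower. Without single arrays 0 to 5 were higher and 0 to 4 lower, with 5 higher without DMHF rat 5, 4 higher without DMHF rat 1, and 4 lower without control rat 1 or 5. Shares of all genes were not counted under these alternatives. Whether any of these member counts exceeds its background is therefore not known. The 35 genes above 0 were 33 to 36 without single arrays, 14 of 40 among the brighter probe sets and 11 of 28 after quantile normalization, which left 10076 probe sets with any variation. The subfamily counts above 0 without single arrays were 4 to 8 (Kcna-d), 7 to 10 (Kcnj), 4 to 6 (Kcnk), 2 to 4 (Kcnm/Kcnn) and 0 to 1 (Kcnq). After quantile normalization they were 2 for Kcna-d, 2 for Kcnk, 0 for Kcnm/Kcnn and 0 for Kcnq, and among the brighter probe sets 3 for Kcnj, 1 for Kcnk, 1 for Kcnm/Kcnn and 0 for Kcnq. For Kcnq they were 2 with the lowest-mean probe set and 2 with the covariate. Fewer genes were tested in the brighter and quantile settings, and other causes were not tested.

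Signs of named genes turned as follows, in millionths. Quantile normalization gave Kcnj10 12.4, Kcnj11 0.908, Kcnn1 -31.8 and Kcnn3 -64.9. The same setting moved 10 of the 16 named members it gave a value for by over 1 SD, among them Kcna4 to -31.7, Kcnmb4 to -41.8, Kcnj13 to -44.1, Kcnq3 to -16.7 and Kcnj5 to 71.4 (limma, adjusted p = 0.689), and it put Kcnab3 at -2.88 and Kcnh7 and Kcnj9 at 0. A common array median gave Kcnd2 -2e-04, and array weights Kcnj8 -1.16. The common array median shifts every difference by the same amount, which was smaller than the SD of each named member. That 0 of 44 named members moved by over 1 SD follows from this and does not show stability. The limma p did change. It rose to 0.0822 for Kcns3, 0.814 for Kcnd3, 0.494 for Kcnj2, 0.752 for Kcnv2 and 0.473 for Kcnmb4. It fell to 0.0298 for Kcnh6 and 0.038 for Kcnj13. The lowest-mean probe set gave Kcna2 3.95, Kcnab2 0.927, Kcnd2 -22.2, Kcnip2 4.72, Kcnip3 1.25, Kcnj11 12.2, Kcnj16 -0.715, Kcnj3 -0.107, Kcnk10 -11.1, Kcnk2 0.533 and Kcnq5 0.913. The covariate gave Kcnip1 -0.95, Kcnip3 0.359, Kcnj16 -18.8, Kcnj4 5.4, Kcnj6 0.837, Kcnj8 -1.05, Kcnn3 -0.486, Kcnq1 -1.85, Kcnq3 0.0838 and Kcnq5 0.62. In SD units, the mean of all probe sets gave Kcna2 0.0397, Kcnd2 -0.299, Kcnip1 -0.247, Kcnip2 0.000509, Kcnip3 0.267 and Kcnj11 0.654. With single arrays left out the ranges that crossed 0 were Kcna1 -2.26 to 0.368, Kcnc1 -2.49 to 1.05, Kcnc2 -0.92 to 0.154, Kcnd2 -0.0025 to 0.102, Kcnip1 -0.808 to 1.9, Kcnj11 -0.514 to 0.114, Kcnj16 -7.77 to 25.5, Kcnj4 -10.0 to 1.75, Kcnj6 -2.32 to 0.41, Kcnj8 -2.26 to 2.31, Kcnj9 -3.15 to 0.217, Kcnn3 -0.0377 to 1.92, Kcnq1 -0.71 to 2.93 and Kcnt1 -1.97 to 2.27, and, for genes named after their values were seen, Kcnk6 -0.133 to 0.257 and Kcnmb1 -0.486 to 0.328. Of 74 members 46 kept their sign without each array. Over all probe sets, the unadjusted calls were 1002 higher and 698 lower as deposited, 450 and 154 after quantile normalization, and 208 and 333 with a common array median, so the direction of the excess depends on the scaling.

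Rats with the same replicate number had deviations correlated at 0.214, 0.0329, 0.273, 0.0856 and 0.0288 for numbers 1 to 5. Rats of different numbers were not compared, so these values do not settle whether the numbers mark pairs. The labels name no pairing, and none was used in the main fit. Each number holds 1 rat of each group, so the replicate block cannot change a difference, only its p. The count of 35 genes above 0 was thus fixed in advance and says nothing of pairing.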
